A study of Drosophila melanogaster with 8 samples.

Results

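The genes described here encode the 3 large chemoreceptor families of Drosophila melanogaster: the odorant receptors (Or), the gustatory receptors (Gr) and the ionotropic receptors (Ir). A gene was taken when a probe set on the array named that gene alone and its symbol began with Or, Gr or Ir followed directly by a digit. Where a gene had several such probe sets, the one with the highest mean intensity over all arrays stood for it. The rule gave 165 of the 11982 genes that had a probe set of their own: 56 odorant, 56 gustatory and 53 ionotropic receptor genes. They came from 185 probe sets, and 153 of them had a single one. The fly gene table used for names (Release 6 plus ISO1 MT) lists 186 genes with such symbols, so 21 were not analysed on their own here: 4 Or, 4 Gr and 13 Ir genes.

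RNA came from S2 cells, a single cultured line with features of the fly's blood cells (hemocytes). All cells first received double-stranded RNA (dsRNA). It was a non-specific dsRNA in control cells, and in the RNAi cells it targeted dSTING, the fly's version of the cyclic dinucleotide receptor STING. After 3 days they received either the lipid reagent alone (mock) or the reagent with 90 nucleotides long double-stranded DNA (dsDNA). They were lysed 24 hours after that, and biotin-labelled RNA was hybridised to Affymetrix arrays. Control and dSTING RNAi cells were each measured with mock and with dsDNA treatment, so that there were 4 groups of 2 arrays. Group names were taken from titles, because in 4 samples the genotype tag tracks the DNA and not the dsRNA, and Sting itself, at 48.7 to 53.1 in the 4 control arrays and 3.45 to 8.05 in the 4 RNAi arrays, went with the titles. Separate cultures are not mentioned in the labels, so the spread between the arrays of a group, and with it each p-value, may be technical. Control mock number 2 and dSTING RNAi dsDNA number 2 lay far from the rest, with scores of 15.6 and -16.1 on the leading principal component, where the others scored -4.01 to 6.50.

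Odorant receptors are membrane proteins that form an odour-gated ion channel together with the shared co-receptor Orco. Gustatory receptors are their relatives and serve taste and the sensing of carbon dioxide, while ionotropic receptors descend from ionotropic glutamate receptors and sense acids, amines, salts, temperature and humidity, usually with the co-receptors Ir25a, Ir8a, Ir76b or Ir93a. Each receptor is typically made in a small set of sensory neurons of the antenna, palps, mouthparts, legs or larval head organs. A blood-like cell line would not be counted among their usual sites of expression.

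Values are the authors' processed intensities on a linear scale that never goes below 1. Many values lie exactly at this floor, where they carry no order. Intensities of different probe sets depend on how well their probes bind, so a rank by intensity is not a rank by transcript number. No detection calls were used, and a value at or near the floor does not show that a transcript was absent.

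The chemoreceptor genes lay almost entirely at or little above the floor. Their median mean intensity over the 8 arrays was 1.08, against 1.39 for all 11982 genes, and 161 of the 165 (97.6%) were under 2 in every array, against 53.0% of all genes. None of the 165 had a mean log2(intensity + 1) above 3, an intensity of about 7, which 29.6% of all genes passed. In all, 459 of their 1320 values (34.8%) sat exactly at 1, compared with 16.7% of the values of all genes. The receptor gene Gr59f was at 1 in all 8 arrays, Ir67c, Ir7c, Gr10a, Gr63a and Ir94g were at 1 in 7, and 24 of the 165 (14.5%) were above it in every array, against 59.3% of all genes.

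**Figure D1:**
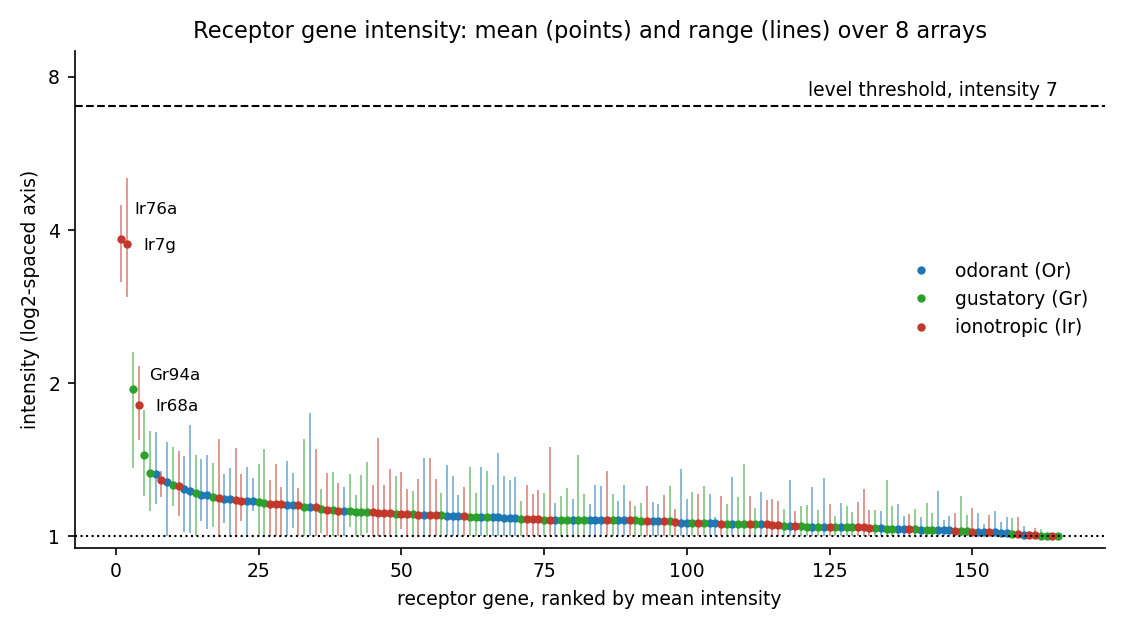
Mean intensity (points) and range over the 8 arrays (vertical lines) of the 165 chemoreceptor genes, ranked by mean and coloured by family, on a log2-spaced axis; the dotted line is the floor of 1 and the dashed line the level of 7. Ir76a and Ir7g sit near 4, Gr94a and Ir68a near 2, and the remaining 161 genes stay below 2 in every array.

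The families differed little from each other. Medians of the mean intensity were 1.08 for the odorant, 1.08 for the gustatory and 1.08 for the ionotropic receptor genes, and the shares of values at the floor were 35.7%, 33.3% and 35.4%. No odorant receptor gene had a mean above 1.33, that of Or43b, and the highest single odorant receptor value was 1.75. Gustatory receptor genes reached a mean of 1.95 and ionotropic ones 3.84. By chromosome arm there were 21 genes on X, 31 on 2L, 45 on 2R, 28 on 3L and 40 on 3R, with medians between 1.06 and 1.09.

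Among genes of known role, the shared co-receptors of the ionotropic family were near the floor. The mean intensity over 8 arrays was 1.11 ± 0.11 for Ir25a, 1.14 ± 0.15 for Ir8a, 1.18 ± 0.20 for Ir76b and 1.13 ± 0.12 for Ir93a (SD, n = 8). Orco, the co-receptor of all odorant receptors, whose symbol falls outside the rule, had 1.11 ± 0.08 (SD, n = 8) and at most 1.20. The highest value of any co-receptor in any array was 1.49, for Ir76b.

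Taste and carbon dioxide receptors showed the same low values. Gr21a and Gr63a, which act together as the carbon dioxide receptor, had means of 1.17 and 1.001. The 6 bitter receptor genes listed (Gr32a, Gr33a, Gr39a, Gr66a, Gr89a and Gr93a) had means from 1.01 to 1.13. Of the 5 measured sweet receptor genes, Gr5a, the trehalose receptor, had 1.44 and Gr43a, the fructose receptor, 1.33, whereas Gr61a, Gr64a and Gr64f had 1.04 to 1.06. Gr5a and Gr43a were above the floor in all arrays.

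Pheromone and odour receptors were as dim. Or67d, which detects the male pheromone cis-vaccenyl acetate, had a mean of 1.03, and the pheromone receptor genes Or47b, Or88a, Or65a and Gr68a had 1.06 to 1.21. Among further odour receptors, Or56a, the geosmin receptor, had 1.08, Or22a 1.17, Or42b 1.23, Or59b 1.07, Or85a 1.01 and Or92a 1.06. The ionotropic odour receptors Ir64a (acids), Ir75a, Ir84a and Ir92a had 1.03 to 1.11. Receptors for temperature and humidity included one of the brighter members: Ir68a, needed for sensing moist air, had 1.81, while Ir40a, needed for sensing dry air, had 1.29, the cool receptor Ir21a 1.15 and the warmth receptor Gr28b 1.12.

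The 4 genes that reached 2 in any array were Ir76a, Ir7g, Gr94a and Ir68a. Ir76a, which encodes a receptor for amines such as phenylethylamine in antennal neurons, had 3.49 and 3.16 in control mock, 3.81 and 4.29 in control dsDNA, 3.53 and 3.79 in dSTING RNAi mock, and 4.19 and 4.49 in dSTING RNAi dsDNA cells. Ir7g had 4.04 and 5.06, 3.70 and 3.90, 3.64 and 2.96, and 3.65 and 3.14 in the same order. These were the only 2 genes of the 165 at 2 or more in every array, with lowest values of 3.16 and 2.96. They were also the nearest to the level of 3 on the log2 scale from below, at 2.27 and 2.24, with none of the 165 above it.

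Gr94a and Ir68a lay around 2 and were not above it in every array. Gr94a had 2.27 and 1.72 in control mock, 1.79 and 1.93 in control dsDNA, 2.20 and 1.36 in dSTING RNAi mock, and 2.30 and 2.03 in dSTING RNAi dsDNA cells. Ir68a had 1.77 and 1.70, 1.79 and 1.67, 1.54 and 2.16, and 1.89 and 1.99 in the same order. In both, the 2 dSTING RNAi mock arrays alone spanned nearly the whole range, and they overlapped every other group. In RNA from whole cultures a low level in all cells and a higher level in a few cells cannot be told apart. Among all genes, Ir76a and Ir7g stood at the 63.5 and 63.2 percentile of mean intensity, and Gr94a and Ir68a at 55.5 and 54.5.

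**Figure D2:**
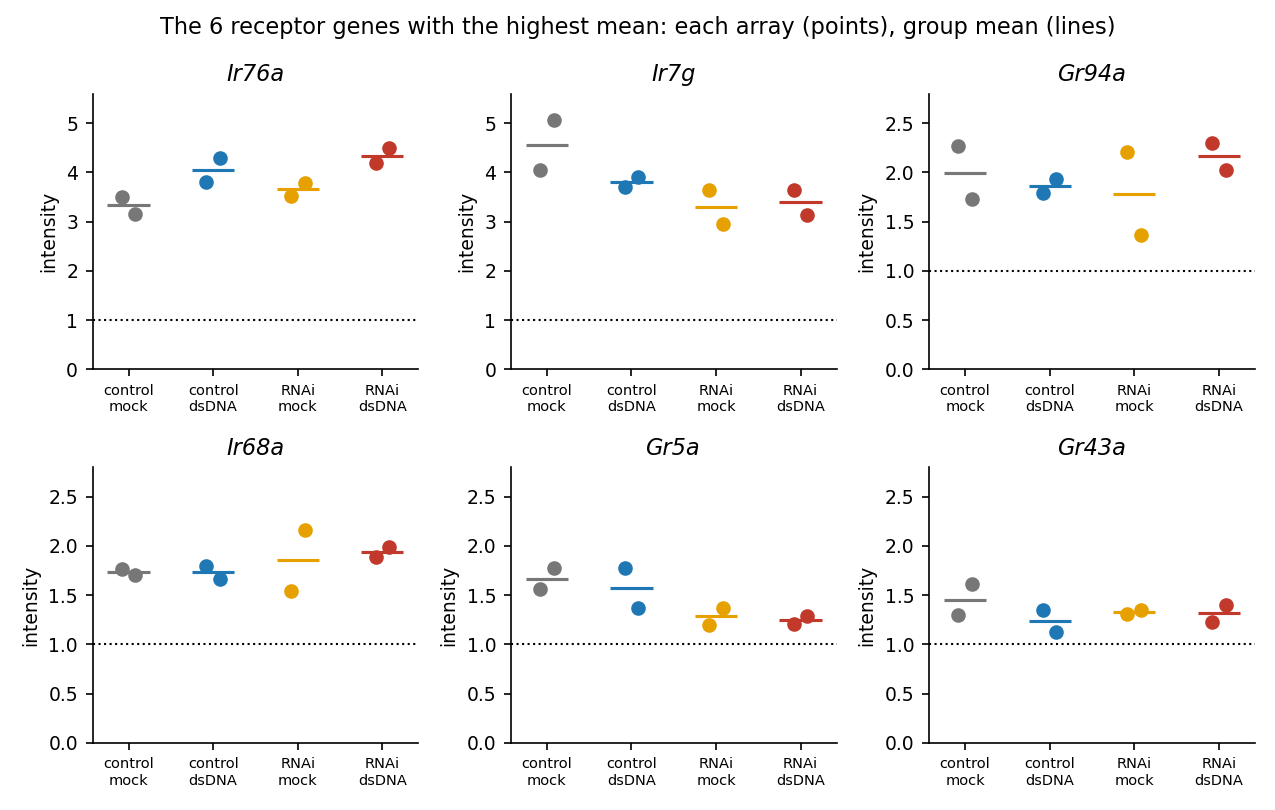
Intensity (linear axis from 0) of the 6 chemoreceptor genes with the highest mean, with each array as a point and the mean of the 2 arrays of a group as a line; the dotted line is the floor of 1. Ir76a was at 3.16 to 4.49 and Ir7g at 2.96 to 5.06, and the other 4 genes stayed under 2.30.

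Probe set type and neighbouring genes were looked up for these genes as a description. Ir76a was the 1 gene of 165 read by a probe set of the type ending in _s_at. Affymetrix gives this suffix to probe sets whose probes match more than 1 transcript. Whether the Ir76a probes match a transcript of another gene could not be looked up. The other genes were read by 159 sets ending in _at and 5 ending in _a_at. In the Release 6 plus ISO1 MT table Ir76a overlaps CG14102 (mean intensity 2.29) and lies between SREBP (155.7), the lipid synthesis regulator, and TORIP (30.0). Ir7g has Ir7f on one side and Acat1 (13.2) on the other, and Gr94a overlaps p53 (24.8). Whether these probes also bound RNA of a neighbour was not tested. Of the 165 genes, 41 overlapped or lay next to a gene with a mean log2 level above 3, Ir76a, Ir7g and Gr94a among them, and the median intensity of the 41 was 1.08. Of these, 10 overlapped such a gene, and their median intensity was 1.09, against 1.08 for the other 155. Neighbours without a measured value, such as Dhx15 at Gr43a and both neighbours of Ir68a, were counted as not above the level. The 41 and the 10 are therefore lower bounds, and the 155 may include genes that overlap a bright one. Apart from Gr94a, the highest of the 10 was Or43b, which overlaps Cul1 (31.4), at 1.33.

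The remaining probe sets of a gene, which the rule passes over for the one with the highest mean, were low as well. For 12 genes there were 32 probe sets, and their means ran from the floor to 1.29. The 5 probe sets of Gr39a, a bitter receptor gene with several alternative first exons, had means of 1.08 to 1.13. The widest gap was at Ir40a, with 1.09 and 1.29. A further 5 probe sets that name a receptor gene together with another gene, and so were left out, were as low: the pair Or19b and Or19a had 1.19, COX6AL2 and Ir75d 1.15, Gr64b and Gr64c 1.03 and 1.06, and Gr64d and Gr64e 1.02.

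Below the 4 brighter genes, the order of the genes was only weakly kept from array to array. Over the 28 pairs of arrays, Spearman's rho of the 161 remaining genes was 0.09 to 0.36 with a median of 0.23. With the 4 included it was 0.15 to 0.41, and Pearson's r of the log2 values went from 0.13 to 0.42 without them to 0.76 to 0.87 with them. The same rho over all 11982 genes was 0.91 to 0.92. The points of such a comparison share probes, scanner and processing, and these values describe the arrays only.

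**Figure D3:**
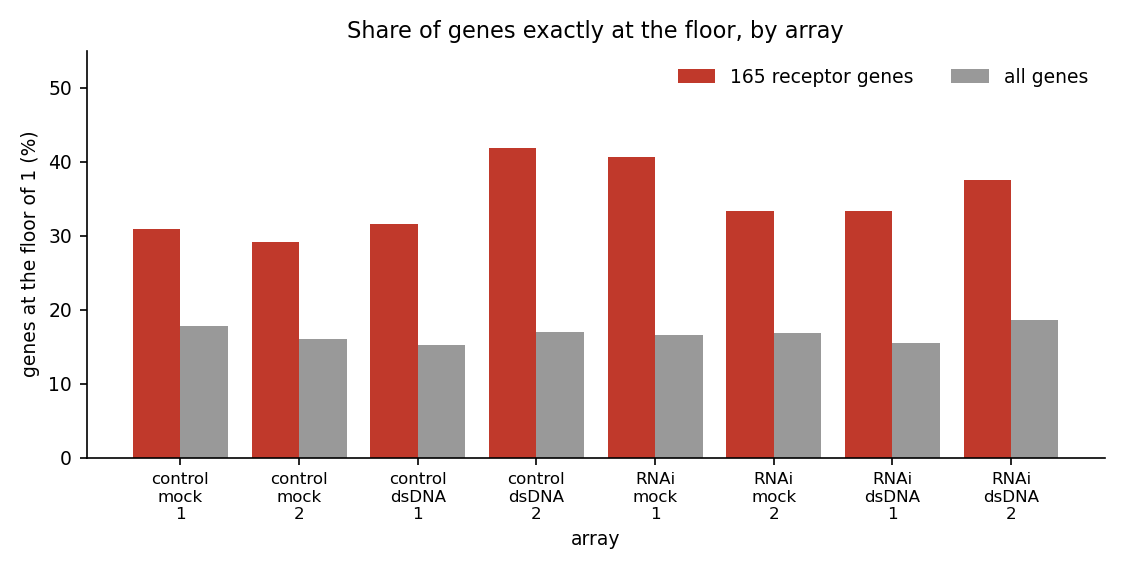
Share of genes exactly at the floor of 1 (percent, from 0) in each of the 8 arrays, for the 165 chemoreceptor genes and for all 11982 genes. Between 29.1% and 41.8% of the chemoreceptor genes were at the floor, against 15.2% to 18.6% of all genes.

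How many chemoreceptor genes touched the floor varied more within 1 group than between groups. The count was 51 and 48 in control mock, 52 and 69 in control dsDNA, 67 and 55 in dSTING RNAi mock, and 55 and 62 in dSTING RNAi dsDNA arrays, of 165 each time. The control mock arrays had the lowest counts, but the gap between the 2 control dsDNA arrays was wider than any gap between the group means. The summed intensity of the 165 genes stayed between 184.6 and 189.9 in all arrays.

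Other genes of chemosensation were low as well. Odorant-binding protein genes, whose products carry odorants in the fluid around sensory neurons, had a median of 1.09 over 47 genes, with 45 under 2 in every array. The exceptions were Obp44a, at 3.59 to 4.85, and Obp99a, at 1.67 to 2.54. Of 12 CheA and CheB genes the highest mean was 1.24. The pheromone sensor component Snmp1 had 1.35, the ion channel genes ppk23, ppk25 and ppk29 1.27, 1.01 and 1.27, and the receptor-choice transcription factors acj6 and pdm3 1.03 and 1.36. Over all 75 such genes 73 (97.3%) were under 2 in every array.

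Relatives and cell type markers put these levels in context. The 12 measured ionotropic glutamate receptor genes, the relatives of the Ir genes, had means from 1.01 (Grik, Nmdar1) to 1.48 (Ekar). Cuticle protein genes of the Cpr family, expected of epidermis and not of blood cells, had a median of 1.11 over 66 genes, with 62 (93.9%) under 2 in every array and Cpr49Ac highest at 5.29. Of 9 measured neuronal markers 8 were under 2 in every array, elav being the exception at 4.18 to 6.78. Of the 4 glial markers, the master regulator repo had 1.01 and gcm 1.08, whereas loco (26.4) and moody (24.9) were bright. The 16 hemocyte markers were divided. A mean log2 level above 3 was reached by 6 of them (37.5%, against 29.6% of all genes). These were Col4a1 at 217.8, vkg at 102.5, srp at 43.7, crq at 23.6, ush at 16.4 and NimC1 at 10.6. The other 10, Hml, Pxn, eater and lz among them, had means at or below 2.38. Under 2 in every array were 9 of the 16 (56.3%), against 53.0% of all genes. All 6 measured markers of antenna and gustatory organ were under 2 in every array.

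The knockdown in dsDNA-treated cells, the comparison that the series names as its purpose, showed no chemoreceptor gene past the threshold. A limma model over all 18769 probe sets and 8 arrays, with Benjamini-Hochberg adjustment at 0.05, called 0 of the 165 and 0 of all probe sets (0% called). Sting, the target of the RNAi, was among the genes not called, so 0 called does not show that a gene was unchanged. In the knockdown over mock and dsDNA together, the smallest limma adjusted p over all probe sets was 0.121. At an unadjusted p under 0.05 there were 15 chemoreceptor genes (9 higher, 6 lower), which is 9.09% of the 165 against 4.51% of all probe sets. This count was 10 to 19 over the 17 alternative fits that tested all 165 genes, and 0 of 25 when the test was restricted to probe sets above the median level. For the alternative fits, here and in the comparisons below, the share of all probe sets at that p was not computed. The genes with the smallest p were Gr47b, with a log2 difference of -0.18 (SE 0.03; adjusted p 0.901 by limma), Gr36c with -0.20 (SE 0.03) and Ir21a with 0.15 (SE 0.03). Behind the first lay intensities of 1.50 and 1.49 in control dsDNA and 1.19 and 1.22 in dSTING RNAi dsDNA arrays, and behind Gr36c 1.30 and 1.40 against 1.04 and 1.04. The 165 log2 differences ran from -0.22 to 0.23 and their median was 0.00, as it was over all genes.

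In mock-treated cells the knockdown again gave 0 called of 165 (limma, 0% of all probe sets). Unadjusted, 5 genes (2 higher, 3 lower) or 3.03% had p under 0.05, against 4.72% of all probe sets. The count was 4 to 14 over the same 17 fits and 1 of 25 above the median level. It was 14 without control mock number 1, 11 without dSTING RNAi mock number 1, 9 without control mock number 2, and 8 without dSTING RNAi mock number 2 or either dSTING RNAi dsDNA array. Or59a had -0.19 (SE 0.04), with 1.23 and 1.37 in control arrays, and 1.04 and the floor in RNAi arrays, and Or67c had 0.19 (SE 0.05) and Or85d 0.09 (SE 0.03). The difference of Ir7g was the largest in size among the 165, at -0.37 (SE 0.12; unadjusted limma p 0.0286). Its 2 control mock values, 4.04 and 5.06, were themselves farther apart than those of any other group.

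dsDNA in control cells likewise gave 0 called of 165 (limma, 0% of all probe sets). Unadjusted, 11 genes (6 higher, 5 lower) or 6.67% had p under 0.05, against 5.25% of all probe sets. The count was 9 to 18 over the 17 fits, highest without control dsDNA number 2, and 1 of 25 above the median level. Gr47b and Gr36c came first, at 0.19 (SE 0.03) and 0.22 (SE 0.03), as they had in the knockdown with dsDNA, and both comparisons use the same control dsDNA arrays. For Gr36c these were its only arrays above 1.09. Or67a had -0.29 (SE 0.06), with 1.53 and 1.37 in control mock and 1.01 and the floor in control dsDNA arrays.

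In knockdown cells dsDNA gave 0 called of 165 (limma, 0% of all probe sets) and 5 at an unadjusted p under 0.05 (4 higher, 1 lower; 3.03% against 4.37% of all probe sets). The latter count was 3 to 17 over the 17 fits, with 11 without dSTING RNAi dsDNA number 2 and 8 without dSTING RNAi mock number 2, and 0 of 25 above the median level. Ir64a had 0.15 (SE 0.03), at the floor in both mock and at 1.19 and 1.24 in the dsDNA arrays. Gr64a, a sweet receptor gene, had 0.12 (SE 0.03) and Ir76a 0.20 (SE 0.07). For the difference between the dsDNA effects with and without the knockdown, 0 of 165 were called (limma, 0% of all probe sets) and 9 (6 higher, 3 lower) had an unadjusted p under 0.05, which is 5.45% against 4.19%. Over the 17 fits there were 7 to 17, with 15 without dSTING RNAi mock number 2 and 14 without control dsDNA number 2, and above the median level 0 of 25. Gr36c had -0.23 (SE 0.05), Gr47b -0.15 (SE 0.04) and Ir21a 0.18 (SE 0.05). Ir7g had 0.24 (SE 0.17) and Ir76a -0.02 (SE 0.10), and neither of these brighter genes passed the threshold.

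Over mock and dsDNA together, 4 arrays against 4, the knockdown called 0 of 165 (limma, 0% of all probe sets). Unadjusted, 13 genes (4 higher, 9 lower) or 7.88% had p under 0.05, against 4.76%. This count was 9 to 18 over the 17 fits and 4 of 25 above the median level. Gr47b had -0.10 (SE 0.02), Or67c 0.18 (SE 0.04) and Or85d 0.09 (SE 0.02). Ir7g had a mean intensity of 4.18 ± 0.61 in control and 3.35 ± 0.35 in RNAi arrays (SD, n = 4 each), a log2 difference of -0.25 (SE 0.09; adjusted p 0.993 by limma), and Gr5a had 1.62 ± 0.19 and 1.27 ± 0.08 (SD, n = 4 each; -0.21, SE 0.06). In both genes every control array lay above every RNAi array, by as little as 3.70 against 3.65 for Ir7g and 1.372 against 1.370 for Gr5a. In all, 7 of the 165 (4.24%) had such groups that do not overlap, against 2.31% of all probe sets: Ir7g, Gr5a, Gr22d, Ir10a and Ir56b with the RNAi arrays lower, and Or67c and Or85d with them higher. Median centring or quantile normalization left 6 (3.64%), without Or67c, against 2.2% and 2.31% of all probe sets. Ir76a (0.09, SE 0.05), Ir68a (0.08, SE 0.07) and Gr94a (0.01, SE 0.12) did not pass the threshold either.

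Averaged over control and knockdown cells, dsDNA called 0 of 165 (limma, 0% of all probe sets) and gave 7 with an unadjusted p under 0.05 (4 higher, 3 lower; 4.24% against 5.38%). The latter count was 7 to 18 over the 17 fits and 2 of 25 above the median level. It was 15 without dSTING RNAi dsDNA number 2 and 13 without control mock number 2, control dsDNA number 2 or dSTING RNAi mock number 1. Ir76a had 3.49 ± 0.26 in the 4 mock and 4.19 ± 0.29 in the 4 dsDNA arrays (SD, n = 4 each), a log2 difference of 0.21 (SE 0.05; adjusted p 0.894 by limma). The 4 dsDNA values, from 3.81, lay above the 4 mock values, up to 3.79, and this narrow separation was lost when the arrays were centred on their medians. Ir31a was the other gene of this kind, with mock arrays from the floor to 1.01 and dsDNA arrays from 1.03 to 1.18, so 2 of 165 (1.21%) did not overlap, against 2.45% of all probe sets. Gr47b had 0.11 (SE 0.02) and Gr36c 0.10 (SE 0.02). Ir7g had -0.08 (SE 0.09), Ir68a 0.03 (SE 0.07) and Gr94a 0.07 (SE 0.12).

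**Figure D4:**
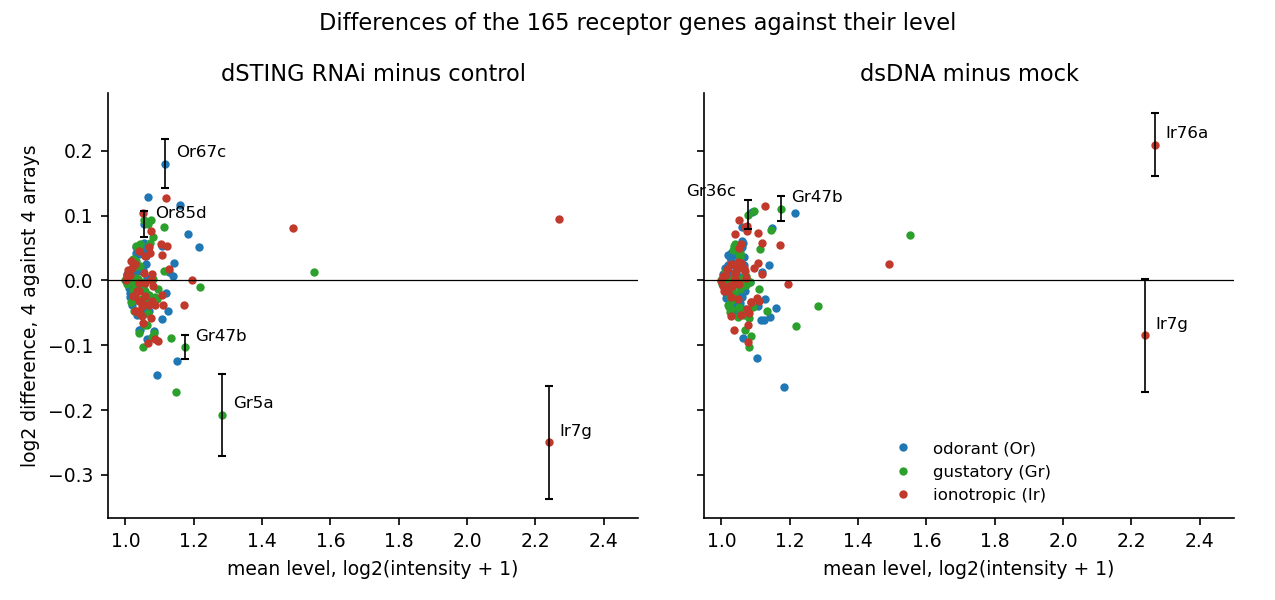
Log2 difference (vertical axis) of the 165 chemoreceptor genes against their mean level, log2(intensity + 1) (horizontal axis), for dSTING RNAi minus control and for dsDNA minus mock, each with 4 arrays on a side; bars are standard errors for the named genes. Nearly all genes crowd at a level of about 1 with differences under 0.20 in size, while Ir7g (-0.25 for the knockdown) and Ir76a (0.21 for dsDNA) lie apart by level, and no gene passed the threshold.

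Across the 7 comparisons the median absolute log2 difference of the 165 genes was 0.03 to 0.05, below the 0.04 to 0.08 over all genes. Differences of probe sets at the floor are bounded by the floor itself and compressed by the added 1, and their spread between arrays of a group was small too (median SD 0.05 on the log2 scale, against 0.09 over all genes). In no comparison did limma call any of the 75 other chemosensory genes, the 12 glutamate receptor genes or the 66 cuticle genes, higher or lower. At an unadjusted p under 0.05 there were 1 to 5 of the 75, 1 of the 12 and 0 to 4 of the 66. The share of all probe sets at that p was 4.19% to 5.38% over the 7 comparisons.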

How the data were processed

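The authors deposited processed intensities, on a linear scale with a floor of 1; how background and scaling were handled, and with which program, was not given in the sources used here. Per the labels' protocols, total RNA was labelled with a 3' IVT Express kit. Of 18952 probe sets, 183 control sets (AFFX) were left out. The platform annotation gave 13647 probe sets 1 gene, 402 several and 4720 none; symbols were updated through gene identifiers, which changed 0 chemoreceptor symbols. Values were analysed as log2(intensity + 1), which understates differences near the floor, in 1 limma model (version 3.58.1, R 4.3.3) with 4 group means, lmFit, contrasts.fit and eBayes, 4 residual degrees of freedom (5.32 with the prior), 7 contrasts, two-sided tests and Benjamini-Hochberg adjustment over 18769 probe sets. The model was tested on simulated data. No result of that test is given here, and nothing about genes at or near the floor, such as most of the 165, is concluded from it. Precision is limited by having 2 arrays a group.

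The genes, lists and level threshold were chosen with earlier results of these data known. Named were the 10 genes of highest mean, the 2 nearest below the level threshold, the 3 with the smallest p in each contrast and genes of well known role; genes whose groups do not overlap, and those at the floor in 7 or 8 arrays, were named after their values were seen. Alternatives are given in the closing section. No sequences were used.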

Additional observations from a re-analysis of the deposited data

How the results depend on the processing

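The count of called chemoreceptor genes was 0 in all 7 comparisons under each of 18 alternative fits: the replicate number as a block (replicate block: 0 called), quantile normalization, median centring, log2(intensity) without a pseudocount, log2(intensity + 16), probe sets above the median level (25 of the 165 tested), a trended and robust eBayes, a single probe set for each gene, array weights, each array left out in turn, and both arrays that stood apart left out (smallest adjusted p 0.274). The counts at an unadjusted p under 0.05 did move, from 0 to 19, with both arrays that stood apart left out giving 13 to 18. Shares of all probe sets at that p were computed for the main fit only. Whether the moves are particular to the chemoreceptor genes was therefore not tested. Keeping only probe sets past the level of 3 left no chemoreceptor gene to test. No strong pairing by replicate number was seen: correlations of the deviations between groups ran from -0.49 to 0.21. The -0.49 was between control mock and dSTING RNAi dsDNA, the groups of the 2 arrays that stood apart. With 1 difference in each group, these values cannot show that the arrays were unpaired. No gene passed the level of 3 under any scaling, probe set choice, or array left out (0 to 0), in every array or in any array, and 0 passed a level of 4, but 2 passed a level of 2. The number under 2 in every array was 161, and 162 without dSTING RNAi mock number 2. Of the named differences, 485 of 493 alternative values kept their direction. No chemoreceptor gene was called in any fit, so only the direction could turn. Most of these differences were named for a small p in these same arrays. The count therefore does not measure how well they would repeat in other arrays. The 8 that turned were small and uncalled. For Gr94a the mean knockdown difference ran from -0.097 to 0.12 with 1 array left out, negative without control mock number 2, control dsDNA number 1, dSTING RNAi mock number 1 or dSTING RNAi dsDNA number 1, and was -0.022 without both arrays that stood apart. In mean dsDNA Ir7g had 0.024 without those 2, Gr94a ran from -0.040 to 0.18 (negative without dSTING RNAi mock number 2) and Ir68a from -0.053 to 0.10 (negative without dSTING RNAi mock number 1). The cause was not tested. The count of genes whose groups do not overlap was chosen after seeing the data. With 1 array fewer, which makes separation easier, it was 7 to 15 for the knockdown and 4 to 9 for dsDNA. The share of all probe sets was then 4.08% to 5.02% for the knockdown and 4.34% to 6.99% for dsDNA. With median centring the count was 1 for dsDNA (0.61% of the 165, against 2.42% of all probe sets). For the knockdown it was 11 or more without any array other than control mock number 2, control dsDNA number 2 or dSTING RNAi mock number 2. Without control mock number 1 it was 15 (9.09% of the 165, against 4.38% of all probe sets). For dsDNA it was 4 or more whichever array was left out, against 2 with all arrays.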
